A study of Mus musculus with 12 samples.

Results

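The matrix metalloproteinases (MMPs) described here are 9 mouse genes, Mmp2, Mmp8, Mmp9, Mmp12, Mmp13, Mmp14, Mmp15, Mmp19 and Mmp23, picked by name from the 21936 genes measured in fibrotic mouse liver. MMPs are zinc-dependent enzymes that cut collagens and other proteins of the extracellular matrix. Most are secreted as inactive proenzymes, are activated by other proteases, and are held in check by the tissue inhibitors of metalloproteinases (TIMPs). In liver they come from several cell types. Stellate cells and myofibroblasts are known for Mmp2, macrophages for Mmp12 and Mmp13, and neutrophils for Mmp8 and Mmp9, and the balance of these enzymes with TIMPs is a textbook theme of fibrosis and its resolution.

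Liver RNA of 3 groups of male C57BL/6 mice (C57BL/6 J in the study's methods) was analysed, with 3 libraries per group. The mice were 6 weeks of age on arrival. All 3 groups were injected intraperitoneally with carbon tetrachloride (CCl4), a hepatotoxin, over 8 weeks, 2 times weekly at 1 mL/kg. Livers of the liver fibrosis group (LFG) were taken after these injections. Mice of the regression group (REG) then got 200 µl of PBS, and the hADMSCs-Exo group 250 µg of exosome protein from human adipose mesenchymal stem cells in 200 µl of PBS, by tail vein 2 times per week for 4 weeks. LFG therefore differs from the other groups also in age and in time since the last CCl4, and these cannot be told apart from the treatment. The 3 hADMSCs samples among the 12 of the series, which received the cells themselves, were not analysed here, nor was an uninjured liver. The columns marked MSC_E were read as the hADMSCs-Exo samples. The sources used here do not spell this name out, and since the series also has samples titled MSC, every hADMSCs-Exo value rests on this reading.

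Total read counts ranged from 13837445 to 19840917 per library. Levels are given as CPM, read counts scaled to a common library size after TMM, and levels of different genes are compared only as FPKM, which divides by gene length. LFG 3 stood apart from LFG 1 and LFG 2. It had the fewest genes with a count (13924, against 15248 in LFG 1), and its summed myofibroblast markers reached 7.27 CPM, against 134 and 110 CPM in LFG 1 and LFG 2. Comparisons with LFG are therefore given with and without LFG 3. LFG 3 was set apart partly by low myofibroblast markers, so leaving it out raises LFG for genes that vary with these markers. Calls made without LFG 3 are tied to that choice and are given as description only. Hepatocyte markers, of which 7 of 8 listed were in the table, summed to 80000, 131000 and 150000 CPM in LFG, 163000 to 169000 CPM in REG and 120000 to 137000 CPM in hADMSCs-Exo. REG and hADMSCs-Exo did not overlap in this sum, but single markers went both ways. Of the 7, 3 had a higher and 4 a lower fitted level (edgeR) in hADMSCs-Exo than in REG. Cyp2e1 (log2 fold change 0.67) and Hnf4a (0.43) lay above REG without overlap, and Alb (-0.44) lay below it. The part of this sum in the differences below was not tested. In bulk tissue, fewer cells of a type and less RNA per cell cannot be told apart.

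The 9 genes lie on 6 chromosomes of GRCm38. Mmp13 (chr9:7272514-7283331), Mmp12 (chr9:7344381-7369499) and Mmp8 (chr9:7558456-7568485) share a 427 kb stretch of chromosome 9 in which all 9 genes of the table are Mmp genes. Mmp2 lies at chr8:92827291-92853420 and Mmp15 at chr8:95352268-95375080. Mmp9 is at chr2:164940780-164955850, Mmp14 at chr14:54431612-54445364, Mmp19 at chr10:128790910-128800824, and Mmp23, the only member on the minus strand, at chr4:155650655-155653384. Mmp12 overlaps Mmp1b on the opposite strand by 1261 bases, but Mmp1b had 0 counts in every library. Mmp19 is overlapped along 9915 bases by the antisense gene Gm47093 and along 789 bases by Tmem198b, and since the strand setting of the counting is not given in the sources used here, its counts may hold reads of these genes.

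Promoter sequence is shown for the 3 members of the chromosome 9 cluster, a choice made after Mmp12 and Mmp13 were seen to vary together across libraries. Their Pearson's r was 0.935, and Mmp14 gave 0.885 with Mmp12 and 0.847 with Mmp13. AP-1, the Fos and Jun family of transcription factors, is a well known activator of MMP promoters. The part of AP-1 in the Mmp values was not tested. The lines give the 120 bases before a RefSeq start (GRCm38.p6, plus strand), at chr9:7272394-7272513 for Mmp13, chr9:7347254-7347373 for the second of 2 Mmp12 starts, which lies inside the annotated gene, and chr9:7558309-7558428 for Mmp8. Capitals mark the AP-1 heptamer TGACTCA, searched on both strands, so that it also appears as TGAGTCA.
Mmp13: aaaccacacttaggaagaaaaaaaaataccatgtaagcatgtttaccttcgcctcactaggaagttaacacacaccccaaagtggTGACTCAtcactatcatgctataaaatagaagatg
Mmp12: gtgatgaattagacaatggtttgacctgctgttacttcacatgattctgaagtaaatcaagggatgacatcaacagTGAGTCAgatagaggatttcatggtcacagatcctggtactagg
Mmp8: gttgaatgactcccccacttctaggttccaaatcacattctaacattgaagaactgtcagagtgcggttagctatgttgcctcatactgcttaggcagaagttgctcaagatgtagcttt
The heptamer begins at -35 in Mmp13 and at -44 in Mmp12, counted from the start. It was absent from the 250 bases before the starts of Mmp8, Mmp14, Mmp15, Mmp23 and the other Mmp12 start. Among other Mmp genes of the cluster it was found before a start of Mmp1b, Mmp3, Mmp7 and Mmp10, and Mmp1b and Mmp10 had no reads in any library. Of the 32851 promoter windows of that length in the table, 4.46% hold it. Mmp2, Mmp9 and Mmp19 were not matched in that table.

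Per length, 3 genes made up most of the signal of the 9 members. Mmp19, Mmp14 and Mmp15 together held 79.3, 83.0 and 88.8% of the summed FPKM of the 9 genes in REG 1, 2 and 3, and 88.4, 85.2 and 82.3% in hADMSCs-Exo 1, 2 and 3. In LFG the shares were 50.1, 64.2 and 96.1%. LFG 1 and LFG 2 thus carried much more of the other 6 genes, whose summed FPKM was 32.0 and 16.7 there, 0.606 in LFG 3, 3.44 to 5.45 in REG and 2.55 to 5.79 in hADMSCs-Exo. The sum over all 9 genes was 64.1, 46.7 and 15.5 in LFG, 26.3 to 30.7 in REG and 21.9 to 34.3 in hADMSCs-Exo. Other Mmp genes are outside this sum, such as Mmp7 (12.1 and 10.5 FPKM in LFG 1 and LFG 2) and Mmp27 (5.9 and 3.05 FPKM). FPKM is scaled by library totals without TMM, whose factors were 1.38 in LFG 1 and 0.815 in LFG 3, so against CPM the FPKM of LFG 1 stands higher relative to LFG 3, while shares within a library are not affected.

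**Figure D1:**
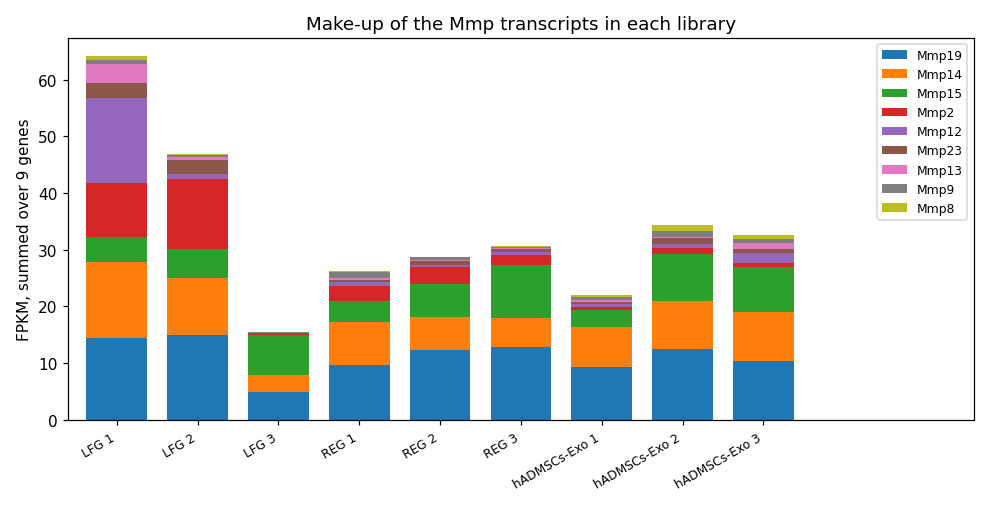
FPKM of the 9 Mmp genes stacked for each of the 9 libraries (vertical axis, FPKM summed over the genes). Mmp19, Mmp14 and Mmp15 form the base of every bar, and Mmp2 and Mmp12 add visibly to the bar of LFG 1, whose sum is 64.1, while LFG 3 reaches 15.5.

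The order of the genes by mean FPKM differed between groups in its middle. In REG it ran Mmp19 (11.6 ± 1.67, SD, n = 3), Mmp15 (6.23 ± 2.91), Mmp14 (6.14 ± 1.27), Mmp2 (2.55 ± 0.59), Mmp9 (0.574 ± 0.337), Mmp23 (0.519 ± 0.153), Mmp12 (0.48 ± 0.131), Mmp13 (0.258 ± 0.0895) and Mmp8 (0.213 ± 0.118). Neighbours whose REG libraries did not overlap were Mmp19 and Mmp15, Mmp14 and Mmp2, Mmp2 and Mmp9, and Mmp12 and Mmp13. In hADMSCs-Exo the first 3 were Mmp19 (10.7 ± 1.61), Mmp14 (8.08 ± 0.831) and Mmp15 (6.36 ± 2.94), and then Mmp12 (1.04 ± 0.643), Mmp9 (0.781 ± 0.319), Mmp2 (0.754 ± 0.284), Mmp23 (0.669 ± 0.402), Mmp8 (0.669 ± 0.317) and Mmp13 (0.557 ± 0.445) followed. There only Mmp19 over Mmp14 and Mmp15 over Mmp12 were separated. Mmp2 thus came right after the leading 3 genes in REG, and below Mmp12 and Mmp9 in hADMSCs-Exo. In LFG the order was Mmp19 (11.4 ± 5.61), Mmp14 (8.72 ± 5.34), Mmp2 (7.43 ± 6.47), Mmp15 (5.51 ± 1.43), Mmp12 (5.28 ± 8.45), Mmp23 (1.78 ± 1.3), Mmp13 (1.29 ± 1.7), Mmp9 (0.39 ± 0.334) and Mmp8 (0.291 ± 0.372), and every pair of neighbours overlapped.

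Mmp2, gelatinase A, which cuts denatured collagen and type IV collagen and is activated at the cell surface by Mmp14, had the smallest p of the 9 genes between hADMSCs-Exo and REG. It stood at 1.43, 3.25 and 3.10 CPM in hADMSCs-Exo 1, 2 and 3 (24, 54 and 49 reads). In REG 1, 2 and 3 it stood at 9.55, 11.0 and 6.71 CPM (155, 200 and 126 reads), so every hADMSCs-Exo library was below every REG library. The log2 fold change was -1.81 ± 0.349 (SE), a 3.5-fold lower level, with an unadjusted p of 0.000784 and an adjusted p of 0.358 in edgeR's quasi-likelihood test over all genes, so it did not pass. DESeq2 called it, with a log2 fold change of -1.82 and an adjusted p of 0.000508. Over all alternatives the adjusted p ranged from 0.000508 to 1, and over the fits that left out a library the log2 fold change ranged from -2.01 to -1.52. The exact permutation test of log2 CPM gave p = 0.1, two-sided, the smallest that 3 against 3 allows.

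In LFG, Mmp2 was at 23.7 and 38.3 CPM in replicates 1 and 2 and at 0.532 CPM in replicate 3, which had 6 reads. LFG 3 lay below every hADMSCs-Exo library, and the other LFG libraries lay above every REG library. Against LFG the log2 fold change was -3.04 ± 1.18 for hADMSCs-Exo (adjusted p = 0.805, edgeR) and -1.20 ± 1.05 for REG (adjusted p = 0.681). Without LFG 3 it was -3.57 ± 0.372 (adjusted p = 0.0105) and -1.73 ± 0.282 (adjusted p = 0.0157), and both passed. Without LFG 2, the highest LFG library, the values were -2.26 (adjusted p = 0.999) and -0.424 (adjusted p = 0.939). Mean log2 CPM with all libraries was 3.17 in REG and 3.07 in LFG, so for REG it differed in sign from the fitted value.

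Mmp9, gelatinase B, shares these substrates and is stored in neutrophil granules. It was at 1.98, 0.832 and 0.621 CPM in LFG, 3.45, 1.82 and 1.12 CPM in REG and 1.55, 3.80 and 3.10 CPM in hADMSCs-Exo, and all groups overlapped. Log2 fold changes were 0.40 ± 0.497 for hADMSCs-Exo against REG (adjusted p = 0.809, edgeR), 1.24 ± 0.6 against LFG (adjusted p = 0.805) and 0.87 ± 0.639 for REG against LFG (adjusted p = 0.625). Without LFG 3 the last 2 were 0.98 ± 0.554 (adjusted p = 0.282) and 0.61 ± 0.601 (adjusted p = 0.486), and without LFG 1 they were 1.91 and 1.53. Mmp9 over Mmp2 in FPKM was 1.03, 1.11 and 0.953 in hADMSCs-Exo, 0.344, 0.157 and 0.159 in REG, and 0.0794, 0.0207 and 1.11 in LFG. This ratio was looked at after the values were seen and was not tested.

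Mmp8, the neutrophil collagenase, was close to the limit of detection, with 1 to 38 reads per library. It was at 0.862, 0.331 and 0.426 CPM in REG and at 0.773, 2.29 and 1.90 CPM in hADMSCs-Exo. The lowest hADMSCs-Exo library lay within the REG range and the others above it. It differed by a log2 fold change of 1.61 ± 0.564, with an unadjusted p of 0.0209 and an adjusted p of 0.432 (edgeR). It had 13, 38 and 30 reads in hADMSCs-Exo and 14, 6 and 8 in REG. It passed the filter on low counts through hADMSCs-Exo, where it was high, so no result is read from this p. In LFG it was at 1.26, 0.277 and 0.0887 CPM, where 3 reads, a floor used here for counting error only, correspond to 0.126, 0.166 and 0.266 CPM. The log2 fold change of hADMSCs-Exo against LFG was 1.48 ± 0.893 (adjusted p = 0.833), and 1.06 ± 0.735 without LFG 3 (adjusted p = 0.374). Without LFG 1 it was 3.02 (adjusted p = 0.992). REG and LFG were not compared for this gene with all libraries, because it did not pass the filter on low counts. Without LFG 3 the value was -0.52 ± 0.746 (adjusted p = 0.638).

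Mmp13, the main interstitial collagenase of rodents, was at 6.26, 1.50 and 0.0887 CPM in LFG. The first of these is 149 reads and the last is 1 read. REG was at 0.986, 0.662 and 0.533 CPM and hADMSCs-Exo at 1.07, 0.542 and 3.04 CPM. The groups overlapped in all comparisons. hADMSCs-Exo against REG gave a log2 fold change of 1.08 ± 0.646 (adjusted p = 0.599, edgeR), and 0.15 without hADMSCs-Exo 3, so that library set most of it. Against LFG it was -0.82 ± 1.18 for hADMSCs-Exo (adjusted p = 0.935) and -1.86 ± 1.11 for REG (adjusted p = 0.558). Without LFG 3, REG was lower by this test (-2.39 ± 0.63, adjusted p = 0.0422) and hADMSCs-Exo was at -1.33 ± 0.792 (adjusted p = 0.305). Without LFG 1, the values were 0.878 for hADMSCs-Exo and -0.176 for REG. In mean log2 CPM with all libraries, hADMSCs-Exo differed from LFG by 0.08, opposite in sign to the fitted value.

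Mmp12, macrophage elastase, which degrades elastin, was the member that varied most within LFG. LFG 1, 2 and 3 had 1877, 96 and 0 reads, or 78.9, 5.32 and 0 CPM. REG was at 4.62, 2.87 and 3.46 CPM, and hADMSCs-Exo at 4.22, 5.42 and 13.9 CPM. LFG 2 lay within the hADMSCs-Exo range and just above REG, so the level of LFG rested on LFG 1. The log2 fold change of hADMSCs-Exo against REG was 1.10 ± 0.457, with an unadjusted p of 0.0425 and an adjusted p of 0.488 (edgeR). It was 0.397 without hADMSCs-Exo 3.
Against LFG it was -1.88 ± 1.6 for hADMSCs-Exo (adjusted p = 0.892) and -2.94 ± 1.62 for REG (adjusted p = 0.524). Without LFG 3 these values became -2.43 ± 0.945 (adjusted p = 0.147) and -3.50 ± 0.882 (adjusted p = 0.0377), of which the second passed. Without LFG 1 they turned to 1.49 and 0.434. Differences in mean log2 CPM with all libraries were 0.92 for hADMSCs-Exo and 0.01 for REG, opposite in sign to the fitted values. The direction of Mmp12 against LFG thus depended on LFG 1 and on the measure.

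Mmp14, the membrane-type 1 enzyme, which cuts fibrillar collagen at the cell surface and activates pro-Mmp2, had 235 to 1365 reads per library and was among the steadier members. It was at 57.4, 54.7 and 20.8 CPM in LFG, 45.9, 38.3 and 31.5 CPM in REG and 41.6, 50.3 and 55.2 CPM in hADMSCs-Exo. LFG 3 was the lowest library and the other groups overlapped. The log2 fold change was 0.34 ± 0.183 for hADMSCs-Exo against REG (adjusted p = 0.563, edgeR), 0.12 ± 0.383 for hADMSCs-Exo against LFG (adjusted p = 0.971) and -0.20 ± 0.383 for REG against LFG (adjusted p = 0.866). Without LFG 3 the last 2 values were -0.19 ± 0.179 (adjusted p = 0.512) and -0.50 ± 0.189 (adjusted p = 0.0974).
Set against its substrate proenzyme, Mmp14 over Mmp2 in FPKM was 16.5, 8.75 and 10.1 in hADMSCs-Exo and 2.72, 1.97 and 2.65 in REG. Each hADMSCs-Exo library was above each REG library. LFG was at 1.37 and 0.807 in replicates 1 and 2 and at 22.2 in replicate 3. This ratio too was chosen after the values were seen and carries no test.

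Mmp15, the membrane-type 2 enzyme, spread within each group as widely as the groups spread between them. It was at 17.1, 24.9 and 47.1 CPM in LFG, 20.1, 33.4 and 53.5 CPM in REG and 15.7, 44.2 and 45.6 CPM in hADMSCs-Exo. It was the only member whose highest LFG library was LFG 3. The log2 fold changes were -0.02 ± 0.444 for hADMSCs-Exo against REG (adjusted p = 0.995, edgeR), 0.23 ± 0.504 for hADMSCs-Exo against LFG (adjusted p = 0.96) and 0.26 ± 0.472 for REG against LFG (adjusted p = 0.853). Without LFG 3 the comparisons with LFG gave 0.75 ± 0.446 (adjusted p = 0.306) and 0.80 ± 0.385 (adjusted p = 0.171). The first of the 3 directions flipped when libraries were scaled by their totals alone (0.0283), a scaling that also moved the median of all genes from 0.008 to 0.0708.

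Mmp19, a secreted enzyme of basement membrane and other matrix proteins, held the highest mean FPKM in all 3 groups. It was at 37.1, 48.0 and 21.6 CPM in LFG, 35.4, 47.2 and 48.2 CPM in REG and 32.1, 43.7 and 39.5 CPM in hADMSCs-Exo. The log2 fold changes were -0.18 ± 0.171 (hADMSCs-Exo against REG, adjusted p = 0.735, edgeR), 0.09 ± 0.311 (hADMSCs-Exo against LFG, adjusted p = 0.973) and 0.29 ± 0.301 (REG against LFG, adjusted p = 0.727). Without LFG 3 the last 2 were -0.14 ± 0.203 (adjusted p = 0.677) and 0.07 ± 0.2 (adjusted p = 0.821).

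Mmp23, a short membrane-anchored member of the family, was at 4.41, 5.27 and 0.798 CPM in LFG, 0.986, 1.76 and 1.12 CPM in REG and 0.773, 2.59 and 1.39 CPM in hADMSCs-Exo. LFG 1 and LFG 2 were the highest of the 9 libraries, and LFG 3, with 9 reads, was among the lowest. Its log2 fold change was 0.30 ± 0.493 for hADMSCs-Exo against REG (adjusted p = 0.857, edgeR). Against LFG it was -1.17 ± 0.761 for hADMSCs-Exo (adjusted p = 0.851) and -1.44 ± 0.683 for REG (adjusted p = 0.477). Without LFG 3, REG was lower by this test (-1.86 ± 0.371, adjusted p = 0.0224), and hADMSCs-Exo was at -1.60 ± 0.488 (adjusted p = 0.0884). For REG against LFG with all libraries, limma with voom and quality weights also called Mmp23 (-1.75, adjusted p = 0.0227).

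**Figure D2:**
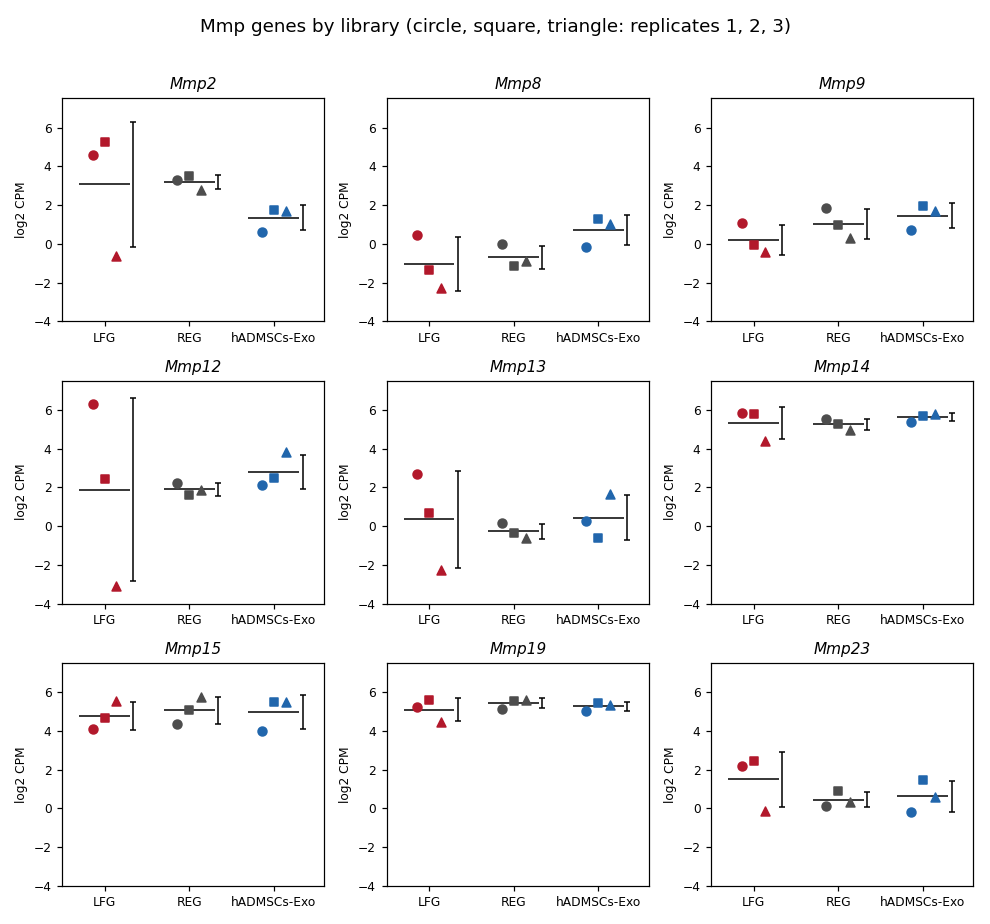
Log2 CPM (vertical axis, prior count 2) of each Mmp gene in the 3 libraries of each group; points are libraries, the long line is the group mean and the bar beside it spans 1 SD either way. Mmp2 is lower in every hADMSCs-Exo library than in every REG library, and LFG 3 (triangle) is the lowest LFG library in every panel except that of Mmp15.

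Counted over the family, edgeR called no member in any comparison with all libraries, where a call needed an adjusted p below 0.05 together with a log2 fold change of 1 or more in either direction. Between hADMSCs-Exo and REG, 0 of 9 members were called, against 0.00811% of the 12337 genes tested. At an unadjusted p under 0.05 in edgeR, Mmp8 and Mmp12 were higher, 2 of 9 beside 5.34% of all genes, and Mmp2 was lower, 1 of 9 beside 4.69%. Mmp8 passed the filter through hADMSCs-Exo, where it was high, so its part in this count is not read as a result. Mmp2 was also the only member whose groups did not overlap, in a background of 7.37% lower and 8.14% higher. DESeq2 called 1 member, Mmp2, beside 0.543% of all genes. The median fitted log2 fold change was 0.34 over the 9 members and 0.008 over all genes, with 6 members higher and 3 lower.

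Between hADMSCs-Exo and LFG, 0 of 9 members were called, as were 0% of 12489 genes, and DESeq2 called 0 members beside 0.480% of genes. At an unadjusted p only Mmp2 was lower, 1 of 9 beside 3.68% of genes, and 0 were higher, beside 2.30%. None of the 9 had groups without overlap, against 12.3% of all genes. The median log2 fold change of the members was 0.09, against -0.059 for all genes, with 5 higher and 4 lower. By mean log2 CPM the median was 0.218, with 2 of 9 lower. The fitted median turned to -0.19 without LFG 3, against 0.004, with 3 higher and 6 lower. Without LFG 3, Mmp2 was called lower, 1 of 9 beside 4.50% of 12955 genes, and 0 members were called higher, beside 1.47%.

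Between REG and LFG, 8 members passed the filter and 0 were called, as were 0% of 12517 genes. DESeq2 called 0 members, beside 1.92% of genes. Voom called 1, Mmp23, beside 10.3% of genes, so 1 of 8 is near the background. At an unadjusted p, 0 members were higher, beside 4.62% of genes, and 0 were lower, beside 6.70%. None had groups without overlap, against 18.9% of genes. The median fitted log2 fold change was -0.70 over the 8 members and -0.068 over all genes, while the median difference in mean log2 CPM over all 9 was 0.104, so these differ in sign. The median fitted value without LFG 3 was -0.52 over 9 members, against -0.005. This is the value of Mmp8, which had few reads and passed the filter only without LFG 3, and the next value, of Mmp14, was -0.50. Without LFG 3, Mmp2, Mmp12, Mmp13 and Mmp23 were called lower, 4 of 9 beside 6.94% of 12948 genes, and 0 were called higher, beside 3.81%. The comparisons with LFG share the LFG libraries, and the 2 counts are not independent of each other.

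Of the other 14 mouse Mmp genes listed, 13 were in the table, and 4 or 5 of them passed the filter with all libraries. None was called. Mmp1b, Mmp10 and Mmp20 had 0 reads in all 9 libraries. Mmp7, matrilysin, was at 9.37, 10.3 and 0 CPM in LFG, 1.85, 2.48 and 1.44 CPM in REG and 0.416, 1.33 and 1.45 CPM in hADMSCs-Exo. Without LFG 3 it was called lower in hADMSCs-Exo (-3.20, adjusted p = 0.021, edgeR) and in REG (-2.31, adjusted p = 0.0133). Stromelysin Mmp3 had 12, 11 and 0 reads in LFG, 0, 10 and 0 in REG and 0 in every hADMSCs-Exo library, and Mmp28 had 29, 12 and 1 reads in LFG, 3, 2 and 2 in REG and 6, 16 and 3 in hADMSCs-Exo. Mmp3 against hADMSCs-Exo and Mmp28 against REG passed the filter only without LFG 3, through the LFG libraries in which they were high, so no call is read from them. Of the other tested genes, Mmp17, a membrane-anchored member, differed by -1.20 ± 0.624 between hADMSCs-Exo and REG (adjusted p = 0.553) and Mmp27 by 0.75 ± 0.492 (adjusted p = 0.63).

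Among 8 listed inhibitors of MMPs, 6 were tested and 0 were called with all libraries. Reck, a membrane-anchored inhibitor of Mmp2, Mmp9 and Mmp14, was at 3.02, 5.35 and 6.34 CPM in REG and at 1.78, 2.71 and 2.09 CPM in hADMSCs-Exo. Every hADMSCs-Exo library was below every REG library (log2 fold change -1.16 ± 0.336, unadjusted p = 0.00852, adjusted p = 0.407, edgeR). Timp2, which inhibits MMPs and also helps Mmp14 to activate Mmp2, was at 45.7, 55.2 and 6.74 CPM in LFG, 20.1, 17.8 and 13.1 CPM in REG and 10.2, 14.3 and 15.9 CPM in hADMSCs-Exo. Without LFG 3, 1 of 6 inhibitors was called lower in hADMSCs-Exo, Timp2 (-1.90, adjusted p = 0.017), and 2 of 6 in REG, Timp2 (-1.54, adjusted p = 0.0145) and Timp3 (-1.14, adjusted p = 0.0372), beside 4.50 and 6.94% of all genes. Timp1, the inducible inhibitor, had 2 to 100 reads per library and was at 4.20, 1.44 and 0.621 CPM in LFG, 0.717 to 1.29 CPM in REG and 0.119 to 1.58 CPM in hADMSCs-Exo.

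Of 13 genes that activate MMPs or hold them at the cell surface, all were tested and 0 were called. Plat, tissue plasminogen activator, was at 1.48, 2.70 and 1.28 CPM in REG and at 0.119, 0.784 and 0.0632 CPM in hADMSCs-Exo, without overlap (-2.46 ± 0.756, unadjusted p = 0.0113, adjusted p = 0.407, edgeR). It had 2, 13 and 1 reads in hADMSCs-Exo. It passed the filter through REG, where it was high, so no result is read from this p. Pcsk5, a proprotein convertase, was higher in hADMSCs-Exo than in REG at an unadjusted p of 0.011 (0.58 ± 0.178, adjusted p = 0.407). Without LFG 3, 2 of the 13 were called lower in hADMSCs-Exo and 5 in REG, beside 4.50 and 6.94% of all genes. The 5 include Plaur, the urokinase receptor (-1.95, adjusted p = 0.0395, edgeR). The 2 include Plat (-4.46, adjusted p = 0.024), which had 183 and 124 reads in LFG 1 and LFG 2. It passed the filter through these libraries, so no call is read from it.

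The list of matrix proteins that MMPs cut leaned to lower values. Of 12 tested substrates, 11 had lower values in hADMSCs-Exo than in REG, 7 of them at an unadjusted p under 0.05 (4.69% of all genes) and 0 called, with a median log2 fold change of -0.91 beside 0.008 for all genes. Col3a1, type III collagen, was at 59.4, 85.4 and 45.6 CPM in REG and at 10.5, 27.7 and 19.1 CPM in hADMSCs-Exo (-1.73 ± 0.357, unadjusted p = 0.00121, adjusted p = 0.358, edgeR). Its groups did not overlap, as with Mmp2. Eln, elastin, differed by -1.41 ± 0.286 (unadjusted p = 0.00108, adjusted p = 0.358). The medians against LFG were -2.48 for hADMSCs-Exo and -1.68 for REG, with 0 called. Without LFG 3, 10 and 11 of 13 substrates were called lower in hADMSCs-Exo and REG, beside 4.50 and 6.94% of all genes. With all libraries 12 were tested, so these counts may include a gene that entered only without LFG 3. Col1a1, Col1a2, Col3a1 and Col5a2 on this list, and Mmp2, Reck and Plat, are also among genes the study picked from these libraries, as is probably Eln, whose symbol seems cut short there, so they are not independent evidence of a direction.

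Of 13 transcription factors of the AP-1, ETS and NF-kB families, 10 were tested and 0 called. All 10 had lower fitted values than LFG in both comparisons, 3 in each at an unadjusted p under 0.05, beside 3.68 and 6.70% of all genes. Without LFG 3, 1 of 10 was called lower in each, beside 4.50 and 6.94%. Fosl2, an AP-1 subunit, was lower in REG than in LFG without overlap (-1.81 ± 0.391, adjusted p = 0.266, edgeR) and was called without LFG 3 (-2.04, adjusted p = 0.0149). Between hADMSCs-Exo and REG, Junb was lower (-0.76 ± 0.173, unadjusted p = 0.00219, adjusted p = 0.358) and Fosl2 higher (0.74 ± 0.199, unadjusted p = 0.00572, adjusted p = 0.394). Among 18 related proteases of the metzincin group, such as the ADAM and ADAMTS enzymes, 12 or 13 were tested and 0 called. Without LFG 3, 7 were called lower in hADMSCs-Exo and 10 in REG, of 15 tested and beside the same 4.50 and 6.94% of genes. Adamts9 in hADMSCs-Exo (-3.01, adjusted p = 0.0185, edgeR) and Adam8 in REG (-3.12, adjusted p = 0.0133) were among them. The 15 include genes that passed the filter only without LFG 3, and the counts called may include these.

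Several marker sums moved with the Mmp genes. The 9 myofibroblast markers summed to 45.6, 48.1 and 32.0 CPM in REG and to 12.1, 25.8 and 20.7 CPM in hADMSCs-Exo, without overlap, in the same direction as Mmp2. Of the 8 tested, 7 had lower values in hADMSCs-Exo, 5 at an unadjusted p under 0.05 (4.69% of all genes), including Acta2, smooth muscle actin (-2.60 ± 0.581, adjusted p = 0.358, edgeR). Stellate cell markers summed to 117 to 219 CPM in REG and 59.1 to 160 CPM in hADMSCs-Exo, and all 9 had lower values there. The study also picked Acta2, Tnc and Thbs2 of the myofibroblast list and Des of the stellate list from these libraries. The part of these cells in the Mmp2 difference was not tested.

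Markers of recruited or scar-associated macrophages summed to 517, 263 and 56.7 CPM in LFG, 105 to 136 CPM in REG and 105 to 190 CPM in hADMSCs-Exo. LFG 1 was highest in this sum and in Mmp12, and hADMSCs-Exo 3 was the highest in both among the REG and hADMSCs-Exo libraries. General macrophage markers summed to 1150, 976 and 131 CPM in LFG, 384 to 1090 CPM in REG and 737 to 900 CPM in hADMSCs-Exo. Among the REG and hADMSCs-Exo libraries this sum was highest in REG 1, and Mmp12 in hADMSCs-Exo 3. Of the 11 general markers, 8 had higher and 3 lower fitted values in hADMSCs-Exo than in REG, with 0 called. At an unadjusted p under 0.05 (edgeR), 2 were higher, beside 5.34% of all genes, and 0 were lower. These 2 were Cd14 (0.87 ± 0.237) and Itgam (1.4 ± 0.482), both without overlap. The study also picked Itgam from these libraries.
Neutrophil markers summed to 37.8, 25.7 and 12.2 CPM in LFG, 87.3, 23.1 and 14.0 CPM in REG and 50.1, 78.3 and 81.3 CPM in hADMSCs-Exo. Mmp8 and Mmp9 were highest in the same REG library, REG 1, and lowest in the same hADMSCs-Exo library, hADMSCs-Exo 1, as this sum. Within REG, Mmp8 was lowest in REG 2 and the sum in REG 3, and within hADMSCs-Exo both genes were highest in replicate 2 and the sum in replicate 3. Against REG, all 10 neutrophil markers tested had higher fitted values in hADMSCs-Exo (median 0.73), with 0 called and 0 at an unadjusted p under 0.05. Of 10 tested against LFG, 8 had higher values in hADMSCs-Exo at an unadjusted p under 0.05, beside 2.30% of all genes, with 0 called. Without LFG 3, 3 were called higher, beside 1.47% of genes, among them S100a9 (1.70, adjusted p = 0.0318). No gene of these marker lists was at 0 in all libraries, and the part of macrophages and neutrophils in the Mmp values was not tested.

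**Figure D3:**
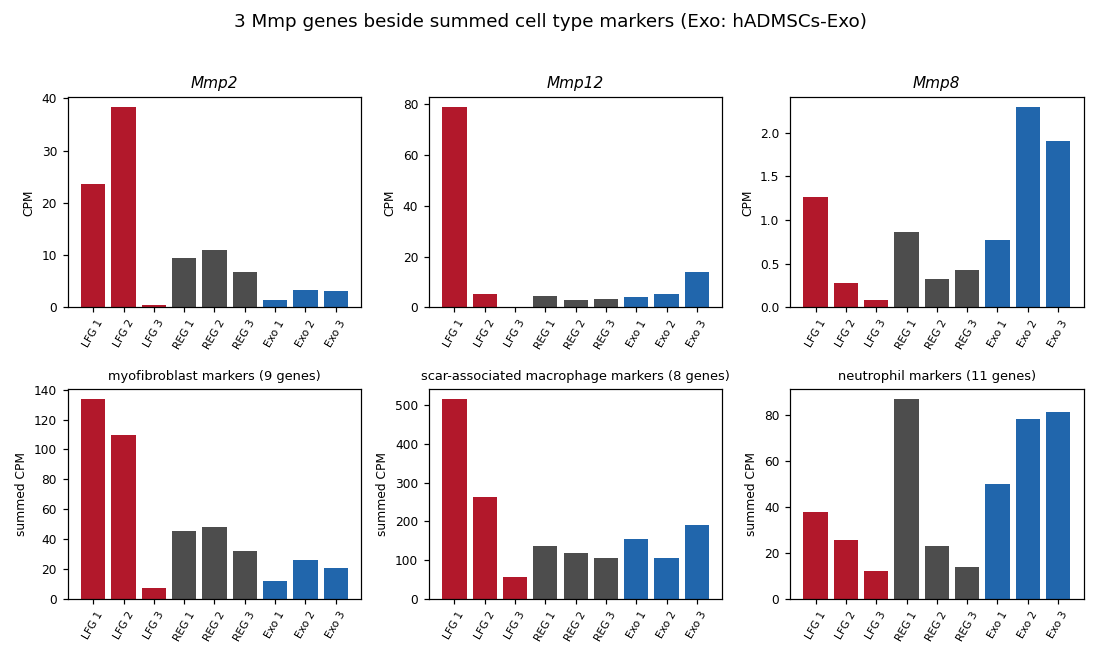
CPM of Mmp2, Mmp12 and Mmp8 (upper row) above the summed CPM of myofibroblast, scar-associated macrophage and neutrophil markers (lower row) in the 9 libraries. LFG 1 is highest for Mmp12 (78.9 CPM) and for the macrophage sum (517 CPM), and LFG 3 is lowest in all 6 panels.

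Across the 9 libraries the genes most like each member in log2 CPM were described by Pearson's r, with no test, since all points share libraries, depth and group. Mmp2 was most like Islr (0.983), Sparcl1 (0.982) and Chpf (0.981), and the values were 0.963, 0.971 and 0.941 over the 6 REG and hADMSCs-Exo libraries. Mmp9 was most like Ltf, lactotransferrin of neutrophil granules (0.957), Tbx21 (0.934) and Gapdhs (0.93). Over those 6 libraries they gave 0.899, 0.902 and 0.823. Mmp12 was most like Lgals3, galectin-3 (0.978), and Capg (0.974), with 0.855 and 0.821 over the 6 libraries, where the third gene, Gnai2 (0.972), gave 0.596. Mmp14 was most like Igsf6 and the myeloid kinase Fgr (0.989 each), Mmp15 like Mtfp1 (0.958) and the complement gene C8a (0.952), Mmp13 like Plekhm2 (0.972), Mmp19 like Gm5096 (0.961) and Mmp23 like Cacnb3 (0.979). Mmp8 had a mean under 1 CPM and was left out.
Among the members themselves, Mmp12 and Mmp13 had the highest r over 9 libraries, 0.935, and had 0.92 without LFG 3 and 0.856 over the REG and hADMSCs-Exo libraries, where Mmp9 and Mmp14 (0.889) and Mmp8 and Mmp14 (0.877) were higher. Mmp8 and Mmp9 gave 0.884, 0.819 and 0.784. Mmp2 and Mmp14 gave 0.635, 0.276 and -0.362, so their likeness rested on the libraries of LFG.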

How the data were processed

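Liver RNA was extracted by the authors with Trizol, and libraries were made from 3 µg with an NEBNext Ultra kit and sequenced on a NovaSeq instrument. The authors deposited raw read counts per gene for the 9 libraries and, beside them, FPKM and gene length in bases. The deposited FPKM could be rebuilt from counts, length and library totals (largest relative difference 9.19e-07). The submitters' processing notes name cutadapt 1.15, HISAT2 2.0.5, HTSeq 0.9.1, DESeq 1.30.0 and GRCm38. The setting for strand is not given in the sources used here. Positions matched GENCODE vM21.

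For all genes, edgeR 4.0.16 (R 4.3.3) was run on the counts (quasi-likelihood, two-sided, TMM, edgeR's filter on low counts), with the 6 libraries of a comparison in each fit and Benjamini-Hochberg adjustment over all genes tested. SE is the log2 fold change divided by the root of F. Alternatives used DESeq2 1.42.0 and limma 3.58.1 (voom with quality weights), other scalings and filters, one fit of all 9 libraries, the replicate number as a block, and each library left out in turn. Python 3.11.15 with scipy 1.17.1 gave the exact permutation tests. The fit was tested on simulated data. The sources give 3 samples per group from mouse liver and do not say how animals map to libraries, so p-values measure the spread between these libraries.

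The members, gene lists, named genes and tests were chosen with earlier results of these data known. All members were named, and of each list at most the 3 genes with the smallest p, or those without overlap. Mmp1b, Mmp3, Mmp10, Mmp20, Mmp28 and Timp3 were named after their values were seen. The sources pair no libraries, and LFG livers were taken before the other groups were treated. The replicate number was used as a block only as an alternative. Deviations from the group means in same-numbered libraries of hADMSCs-Exo and LFG had correlations of 0.107, 0.313 and 0.191. In the pairs of hADMSCs-Exo with REG the correlations were 0.143, -0.00732 and 0.0273, and in those of REG with LFG they came to 0.423, -0.207 and 0.315.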

Additional observations from a re-analysis of the deposited data

How the results depend on the processing

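Between hADMSCs-Exo and REG, genes called numbered 1 with edgeR, 67 with DESeq2, 3 with voom, 4 with no filter, 0 with all 9 libraries in one fit, 266 at an unadjusted p with the fold limit and 1237 without it, and 0 to 1 when each library was left out. Members called were 0, 1 with DESeq2, and 3 at an unadjusted p with or without the fold limit, Mmp8 among them. In each fit that left out a library 0 were called. Between hADMSCs-Exo and LFG, genes called were 0 with edgeR, 60 with DESeq2, 1 with voom, 1 in one fit, 374 and 747 at an unadjusted p, and 0 to 773 when a library was left out, the highest without LFG 3. Members called were 0, 1 at an unadjusted p, and 0 to 1 when a library was left out. Between REG and LFG, genes called were 0 with edgeR, 240 with DESeq2, 1285 with voom, 537 and 1417 at an unadjusted p, and 0 to 1391 when a library was left out. Members called were 0, 1 with voom, and 0 to 4 when a library was left out, again highest without LFG 3. The cause was not tested.

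Directions that turned belonged to small or uneven fold changes. For hADMSCs-Exo against REG, Mmp15 gave 0.0283 with library totals alone and 0.0261 with voom, and -0.294 to 0.391 when a library was left out, and Mmp23 gave -0.257 to 0.626. For hADMSCs-Exo against LFG, Mmp14 gave -0.112 with library totals and -0.114 with voom, and Mmp19 -0.0957 and -0.208. Leaving out a library gave -0.191 to 0.354 for Mmp14, -0.144 to 0.366 for Mmp19, -2.55 to 1.49 for Mmp12, -1.72 to 0.878 for Mmp13 and -0.0467 to 0.749 for Mmp15. For REG against LFG it gave -3.50 to 0.434 for Mmp12, -0.505 to 0.0319 for Mmp14 and -0.108 to 0.799 for Mmp15. The median difference in mean log2 CPM of the 9 members was 0.352, 0.218 and 0.104 in the 3 comparisons and ranged from 0.164 to 0.563, from -0.202 to 0.539 and from -0.554 to 0.523 when a library was left out.

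Library totals alone moved the median log2 fold change of all genes in the comparisons with LFG, to -0.179 in hADMSCs-Exo and -0.272 in REG. With the replicate block, genes called were 1, 0 and 0 and members called 0, 0 and 0 in the 3 comparisons. Mmp2 of hADMSCs-Exo against REG was at -1.84 (adjusted p = 0.243, edgeR). The block put Mmp12 of hADMSCs-Exo against LFG at -0.00119, and no call of a member changed. Of all member fold changes under alternatives, 325 kept direction and side of the threshold, 19 turned and 7 newly passed. Mmp8, Mmp9, Mmp13 and Mmp23 had few reads, which limits their precision.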

Other observations

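Cell type markers that the Mmp genes were not set beside are given here as values. T and NK lymphocyte markers summed to 14.0, 22.3 and 4.17 CPM in LFG, 13.2 to 25.1 CPM in REG and 24.7 to 28.6 CPM in hADMSCs-Exo, and 7 of the 8 had higher fitted values in hADMSCs-Exo than in REG, with 0 called. Cholangiocyte markers summed to 14.7 to 16.8 CPM in REG and 10.1 to 10.8 CPM in hADMSCs-Exo, without overlap, and Sox9 of that list was lower at an unadjusted p of 0.0136 (-0.86 ± 0.275, adjusted p = 0.409, edgeR). Sinusoidal endothelial markers summed to 139 to 356 CPM in REG and 107 to 271 CPM in hADMSCs-Exo. Markers of B lymphocytes and plasma cells summed to 27.5 to 32.8 CPM in REG and 11.8 to 50.2 CPM in hADMSCs-Exo, and mesothelial markers to 1.97 to 3.04 CPM and 3.21 to 4.93 CPM. Erythroid markers varied from 187 to 883 CPM in REG and from 109 to 522 CPM in hADMSCs-Exo.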
